A study of Mus musculus with 6 samples.

Results

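The 9 genes described here encode fibronectin (Fn1), fibrillin 1 (Fbn1), 4 matricellular proteins (Sparc, Thbs1, Tnc and Postn) and 3 small leucine-rich proteoglycans (Dcn, Bgn and Lum). They were taken by symbol from 37991 Ensembl gene identifiers counted in each library, and each symbol matched 1 identifier. RNA was sequenced from a serrated polyp, a lesion with a saw-toothed crypt outline, and from the normal distal cecum around it in each of 3 mice, which gave 6 libraries in 3 pairs. All 3 animals were HBUS mice aged 60 weeks. In this strain the gut epithelium carries a pair of transgenes, for HB-EGF, a ligand of the EGF receptor, and for US28, a chemokine receptor of viral origin. The surrounding tissue carried both transgenes too, and no wild-type cecum was compared. The question was which transcripts differ between a polyp and its surroundings in the same animal.

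Fibronectin is assembled by cells into fibrils that bind integrins, collagens and growth factors. Matricellular proteins are secreted into the matrix but act mainly on how cells attach and signal, and several are scarce in resting tissue and abundant during repair and in tumour stroma. Small leucine-rich proteoglycans carry glycosaminoglycan chains, bind collagen fibrils and bind growth factors. In the gut wall most of these proteins come from fibroblasts and other mesenchymal cells, although fibronectin, thrombospondin 1 and tenascin C can also be made by other cell types.

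Total counts ran from 6632645 to 13350119 per library, of which the mitochondrial rRNAs took 46.3% to 75.3%. The labels describe a step that captures mammalian RNA to enrich bacterial RNA, so the mouse counts may come from what that step left behind. The polyp library of mouse 1192 held counts for 12333 genes at an equal depth of 1852065 counts outside the mitochondrial rRNAs, and the other 5 held 14278 to 16086. The 9 genes together drew 503 to 1082 counts in the surrounding libraries and 2150 to 2726 in the polyp libraries. Every one of them had counts in all 6 libraries and passed the filter on low counts. Levels are given as CPM, which here means counts divided by a library size adjusted for composition, with mean ± SD over n = 3 mice. Differences are log2 fold changes of polyp over surrounding tissue ± standard error from a model with the mouse as a block (edgeR). A gene was called changed at a Benjamini-Hochberg adjusted p under 0.05 over all 10960 genes tested.

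Fibronectin, Sparc, tenascin C and biglycan transcripts rose 3.04-fold to 3.78-fold in polyps. Of the 9 genes 4 rose and 0 fell, where 1.72% of all tested genes were called higher and 1.04% lower (edgeR). At an unadjusted p under 0.05, 8 were higher and 0 lower, where 8.29% of all tested genes were higher and 6.27% lower. All 9 estimates were above 0, with a median log2 fold change of 1.30, beside a median of -0.02 over all tested genes. By mouse, the median over the 9 genes was 1.56 (1119), 1.15 (1192) and 1.54 (1199). Within pairs, 8 of the 9 genes were higher in the polyp in all 3 mice, as were 19.6% of tested genes. For 6 genes all 3 polyp values lay above all 3 surrounding values, as they did for 9.84% of tested genes. The 9 genes were chosen with earlier results of these data known, so these shares are a description and not a test. Without mouse 1192, 6 of the 9 genes were called higher (beside 1.41% of tested genes). Without mouse 1119 they were 3 (beside 0.415%) and without mouse 1199 also 3 (beside 0.682%). Ignoring the pairing left 4 (beside 0.465%). The samples are whole tissue, in which more cells of a type and more transcript per cell cannot be told apart.

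**Figure D1:**
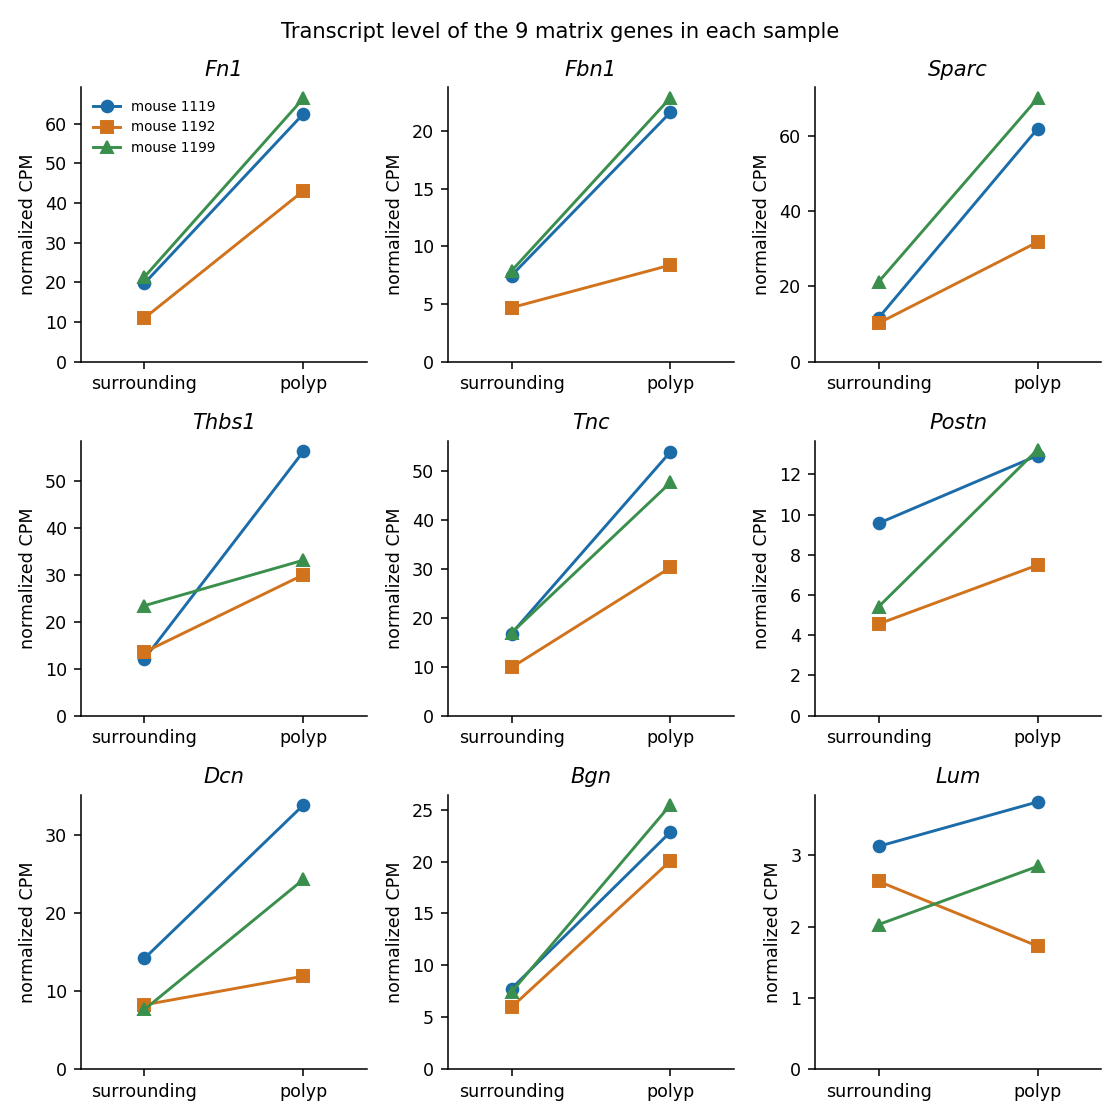
Normalized CPM of each gene on the vertical axis (linear, from 0) in surrounding tissue and polyp, with 1 line per mouse joining its 2 samples. The polyp point lies above the surrounding point in every mouse for 8 genes, and in 2 of 3 mice for Lum.

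Fn1 (ENSMUSG00000026193) encodes the fibronectin subunit. In surrounding tissue of mice 1119, 1192 and 1199 its level was 19.8, 11.04 and 21.4 CPM, and in their polyps it was 62.5, 43.1 and 66.4 CPM. The lowest polyp value, that of mouse 1192, was above the highest surrounding value. The mean went from 17.4 ± 5.58 to 57.3 ± 12.5 CPM, with differences of 1.63 to 1.97 on the log2 scale within the 3 pairs. The fitted log2 fold change was 1.75 ± 0.18 with a 95% interval of 1.35 to 2.15 (adjusted p = 0.00523), the ninth smallest p of all tested genes. Counts behind it were 95 to 209 in surrounding and 467 to 524 in polyp libraries.

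Fbn1 (ENSMUSG00000027204) encodes fibrillin 1, the core of microfibrils on which elastic fibres form and which hold latent TGF-beta complexes. Its level was 7.48, 4.7 and 7.89 CPM in surrounding tissue of mice 1119, 1192 and 1199 and 21.6, 8.39 and 22.9 CPM in their polyps. The groups did not overlap, but the polyp of mouse 1192 lay only just above the surrounding samples. The log2 fold change of 1.30 ± 0.29 missed the threshold (adjusted p = 0.0564, 95% interval 0.64 to 1.96). Leaving out mouse 1192 gave 1.49 with adjusted p = 0.0214. Leaving out mouse 1119 or mouse 1199 gave 1.17 each time, with adjusted p = 0.316 and 0.383.

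Sparc (ENSMUSG00000018593) encodes osteonectin, a collagen-binding glycoprotein that takes part in collagen deposition. Surrounding tissue of mice 1119, 1192 and 1199 had 11.65, 10.3 and 21.2 CPM, and polyps had 61.8, 31.7 and 69.8 CPM. Polyp values were all above the surrounding ones, and mouse 1192 had the lowest value in both tissues. The mean went from 14.4 ± 5.95 to 54.5 ± 20.1 CPM. Among the 9 genes this was the highest estimate, a log2 fold change of 1.92 ± 0.21 or 3.78-fold (adjusted p = 0.00777), with 1.63 to 2.41 within pairs.

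Tnc (ENSMUSG00000028364) encodes tenascin C, a large glycoprotein of repairing tissue and tumour stroma. Its surrounding levels were 16.8, 9.83 and 16.9 CPM and its polyp levels 53.9, 30.3 and 47.6 CPM, again in the order of mice 1119, 1192 and 1199. Groups were apart, and the 3 pairs gave nearly the same difference, 1.49 to 1.69 on the log2 scale. It rose 3.04-fold, from 14.5 ± 4.05 to 43.9 ± 12.3 CPM. The log2 fold change was 1.60 ± 0.18 with adjusted p = 0.00827.

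Thbs1 (ENSMUSG00000040152) encodes thrombospondin 1, which binds CD47 and CD36, activates latent TGF-beta and restrains angiogenesis. Surrounding tissue of mice 1119, 1192 and 1199 had 12.1, 13.5 and 23.4 CPM, and polyps had 56.3, 30.02 and 33.1 CPM. No surrounding value reached a polyp value, but the size of the difference varied most between mice for this gene. On the log2 scale mouse 1119 had 2.22, mouse 1192 1.15 and mouse 1199 0.50. The estimate of 1.30 ± 0.31 did not pass (adjusted p = 0.0752, 95% interval 0.59 to 2.00), while DESeq2 and limma-voom gave adjusted p = 0.00531 and 0.0314. Without mouse 1119 the estimate dropped to 0.83 (adjusted p = 0.298). It was 1.34 without mouse 1192 (adjusted p = 0.19) and 1.66 without mouse 1199 (adjusted p = 0.0914), so it did not pass with any of the 3 mice left out.

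Postn (ENSMUSG00000027750) encodes periostin, a matricellular protein of fibroblasts that binds integrins, collagen and tenascin C. Its level was 9.57, 4.56 and 5.41 CPM in surrounding tissue and 12.9, 7.48 and 13.2 CPM in polyps of mice 1119, 1192 and 1199. Each polyp was above its own surrounding sample, yet the groups overlapped, since surrounding tissue of mouse 1119 exceeded the polyp of mouse 1192. The log2 fold change was 0.79 ± 0.32 (adjusted p = 0.305), with a 95% interval of 0.05 to 1.53 that holds changes from 1.04-fold to 2.89-fold.

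**Figure D2:**
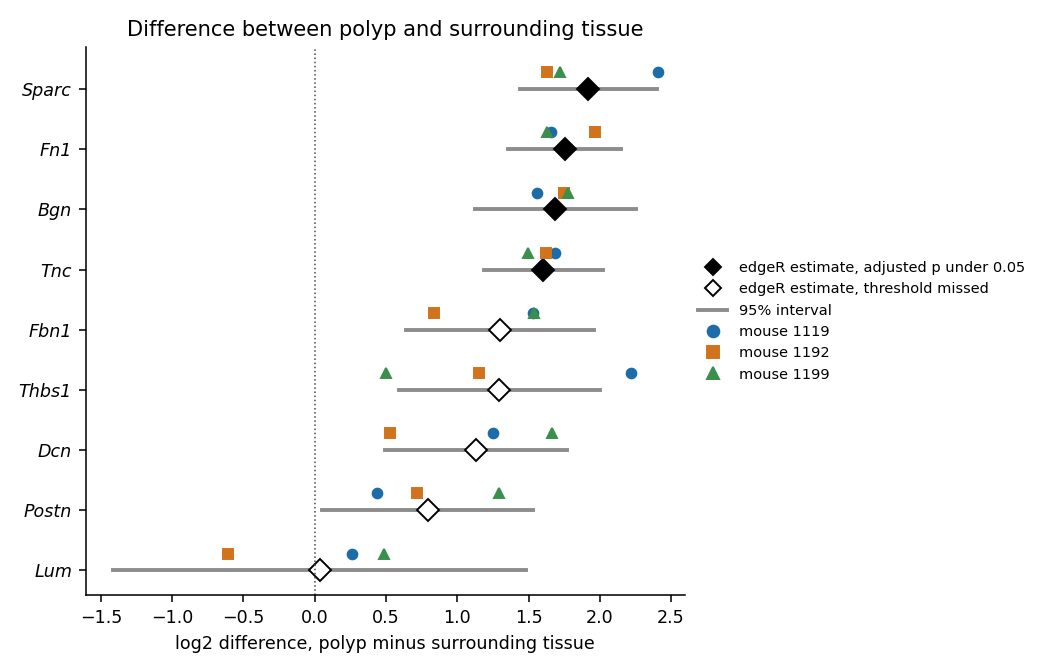
Log2 difference of polyp minus surrounding tissue on the horizontal axis for each gene, with the edgeR estimate and its 95% interval (filled where the adjusted p is under 0.05) and the difference in each mouse. The 4 filled genes lie between 1.60 and 1.92, and the interval of Lum, from -1.42 to 1.49, is the widest.

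Bgn (ENSMUSG00000031375) encodes biglycan, a proteoglycan that binds collagen and, when released, toll-like receptors. In mice 1119, 1192 and 1199 the surrounding tissue had 7.77, 5.98 and 7.44 CPM and the polyps 22.8, 20.07 and 25.5 CPM. Each group was narrow and they were far apart. The mean went from 7.06 ± 0.95 to 22.8 ± 2.69 CPM, a log2 fold change of 1.69 ± 0.25 or 3.22-fold (adjusted p = 0.0153). The call was lost without mouse 1119 (adjusted p = 0.071) or without mouse 1199 (0.121), although the estimates then stood at 1.75 and 1.63.

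Dcn (ENSMUSG00000019929) encodes decorin, the close relative of biglycan that decorates collagen fibrils and binds TGF-beta. It had 14.2, 8.26 and 7.66 CPM in surrounding tissue of mice 1119, 1192 and 1199 and 33.9, 11.9 and 24.3 CPM in polyps. Each polyp was above its own surroundings, but the polyp of mouse 1192 lay below the surrounding tissue of mouse 1119. The log2 fold change of 1.13 ± 0.28 missed the threshold (adjusted p = 0.085, 95% interval 0.49 to 1.77). Without mouse 1192 it was 1.39 with adjusted p = 0.0208. It was 1.06 without mouse 1119 (adjusted p = 0.372) and 0.88 without mouse 1199 (adjusted p = 0.432).

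Lum (ENSMUSG00000036446) encodes lumican, which regulates the thickness of collagen fibrils. Its level was 3.13, 2.63 and 2.03 CPM in surrounding tissue and 3.75, 1.73 and 2.84 CPM in polyps of mice 1119, 1192 and 1199. The groups overlapped, and the polyp was lower in mouse 1192 and higher in the other two. The estimate was 0.03 ± 0.64 (adjusted p = 0.989), and its interval of -1.42 to 1.49 spans a fall as well as a rise of more than 2-fold. Only 9 counts stood behind the lowest level, with an exact Poisson 95% interval of 4.12 to 17.1 counts that covers counting error only.

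Ratios of raw counts within a library do not depend on how libraries are scaled. The Bgn to Lum ratio was 2.48, 2.27 and 3.67 in surrounding tissue of mice 1119, 1192 and 1199 and 6.10, 11.6 and 8.95 in their polyps. All 3 polyp ratios were thus above all 3 surrounding ratios. For Sparc to Lum the ratio was 3.73, 3.89 and 10.4 in surrounding tissue and 16.5, 18.4 and 24.55 in polyps, again without overlap. The Bgn to Dcn ratio increased in all 3 mice, but by 1.23, 2.32 and 1.08 times, and its groups overlapped (0.547 to 0.971 in surrounding tissue, 0.675 to 1.68 in polyps). In each of these 3 ratios the change had the same direction in 3 of 3 pairs, where an exact two-sided sign-flip test cannot go below p = 0.25. Lum took 1.79% to 3.72% of the counts of the 9 genes in surrounding tissue and 0.93% to 1.14% in polyps. Fn1 took 15.6% to 19.3% in surrounding tissue and 19.0% to 23.3% in polyps, and these ranges overlapped. In mouse 1119 the Fn1 share was 19.3% in surrounding tissue and 19.0% in the polyp.

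Of the collagens that these proteins bind, Col1a1 and Col3a1 had larger estimates than any of the 9 genes, a difference that was not tested. Col1a1, a chain of collagen I, went from 15.1 ± 9.28 to 81.0 ± 50.4 CPM. Its log2 fold change was 2.31 ± 0.25 (adjusted p = 0.00777), whereas Col3a1, the collagen III gene, had 2.08 ± 0.15. The Fn1 to Col3a1 count ratio was lower in the polyp in 3 of 3 mice, at 0.469, 0.497 and 0.32 in surrounding tissue and 0.316, 0.433 and 0.273 in polyps. Those groups overlapped. The Fn1 to Col1a1 ratio did not move one way. It was 1.61, 1.46 and 0.841 in surrounding tissue and 0.633, 1.79 and 0.553 in polyps, higher in the polyp of mouse 1192 and lower in the other two. The Lum to Col1a1 ratio was 0.254, 0.349 and 0.0796 in surrounding tissue and 0.0379, 0.0717 and 0.0237 in polyps, with every polyp value under every surrounding value.

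Levels were also compared between genes per kilobase of exon. In polyps Sparc was highest with 14.4 ± 5.30 CPM per kb, followed by Thbs1 (6.56 ± 2.37), Tnc (5.65 ± 1.58), Fn1 (4.91 ± 1.07), Dcn (4.00 ± 1.88) and Bgn (3.74 ± 0.44). Fbn1 (1.45 ± 0.66), Postn (1.29 ± 0.37) and Lum (1.13 ± 0.41) were lowest. Neighbours in this order overlapped in their range over the 3 polyps, except that the lowest Bgn value (3.29) was above the highest Fbn1 value (1.89). In surrounding tissue the order was Sparc (3.79 ± 1.57), Thbs1 (2.69 ± 1.02), Tnc (1.87 ± 0.52), Dcn (1.72 ± 0.62), Fn1 (1.49 ± 0.48), Bgn (1.16 ± 0.16), Lum (1.06 ± 0.22), Postn (0.748 ± 0.308) and Fbn1 (0.552 ± 0.143). There every pair of neighbours overlapped.

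RefSeq promoter entries (build GRCm38.p6) matched 5 of the 9 genes, Fbn1, Sparc, Tnc, Postn and Bgn. Fn1, Thbs1, Dcn and Lum were not matched. The 250 bases before the most upstream start are shown for Sparc, Tnc and Bgn, the 3 genes that were called higher and had an entry. Sparc lies on the minus strand at chr11:55420081-55420330, Tnc on the minus strand at chr4:64047016-64047265 and Bgn on the plus strand at chrX:73483351-73483600. Capitals mark matches to any of 5 motifs, each searched on both strands. The TATA box was searched as TATAAA. The CAAT box was searched as CCAAT. For the GC box the letters were GGGCGG. The motif of the AP-1 factors was written TGANTCA. For the TEAD factors the search used CATTCC. Positions count back from -1, the base before the start.
Sparc: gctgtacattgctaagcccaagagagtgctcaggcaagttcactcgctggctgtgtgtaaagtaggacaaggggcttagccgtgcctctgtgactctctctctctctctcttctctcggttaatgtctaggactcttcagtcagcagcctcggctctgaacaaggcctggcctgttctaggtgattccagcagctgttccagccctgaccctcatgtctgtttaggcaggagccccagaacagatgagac
Tnc: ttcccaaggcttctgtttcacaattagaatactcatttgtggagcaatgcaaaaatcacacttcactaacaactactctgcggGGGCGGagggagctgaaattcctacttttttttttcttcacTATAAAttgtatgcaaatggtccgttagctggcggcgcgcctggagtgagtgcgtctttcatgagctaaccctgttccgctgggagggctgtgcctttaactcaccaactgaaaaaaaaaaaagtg
Bgn: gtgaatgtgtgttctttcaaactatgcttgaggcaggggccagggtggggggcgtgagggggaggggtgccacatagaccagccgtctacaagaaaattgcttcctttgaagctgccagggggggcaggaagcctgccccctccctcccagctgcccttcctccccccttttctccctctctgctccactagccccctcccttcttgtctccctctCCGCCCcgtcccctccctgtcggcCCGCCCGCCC
The Sparc window held none of the 5 motifs and runs through a CT repeat. That of Tnc held a GC box and a TATA box, at -126 to -121 from this start. Bgn had 3 GC boxes, of which 2 overlap at -10 to -5 and -6 to -1, in a C-rich stretch. Of 32817 upstream windows of the same length, 12.4% held the TATA box, 32.7% the GC box, 33.8% the CAAT box, 6.75% the AP-1 motif and 12.6% the TEAD motif. The GC box also occurred in the Fbn1 window, and the TATA box in that of the downstream Postn start. A match is a match of letters and says nothing of binding.

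Other matrix genes were grouped in 7 lists, which were also chosen with earlier results of these data known. In other matricellular glycoproteins, 2 of 11 tested genes rose and 0 fell, with a median log2 fold change of 0.70. At an unadjusted p under 0.05 (edgeR), 6 were higher and 0 lower. The genes that rose were Tgfbi, an integrin-binding protein induced by TGF-beta (7.94 ± 3.86 to 23.2 ± 5.99 CPM, adjusted p = 0.0283), and Igfbp7, an insulin-like growth factor binding protein of vessels and stroma (4.49 ± 1.18 to 14.0 ± 6.34 CPM, adjusted p = 0.0492). Ecm1 and Smoc1 were at 1.70 ± 0.41 and 3.16 ± 0.86 on the log2 scale without passing (adjusted p = 0.0798 and 0.108). Smoc1 had only 10, 5 and 1 counts in surrounding tissue of mice 1119, 1192 and 1199. Of elastic fibre and fibulin genes 0 of 9 were called (edgeR), with 3 higher and 0 lower at an unadjusted p under 0.05. For these DESeq2 called 2 and limma-voom 0, and the median was 0.33. Fbn2, the fibrillin 2 gene, had 0.878 ± 0.720 CPM around and 5.21 ± 0.75 CPM within polyps (adjusted p = 0.094). Ltbp2 and Fbln5 had log2 fold changes of 3.15 ± 1.04 and 3.06 ± 1.32, and Emilin1 of -1.15 ± 0.79 (edgeR adjusted p = 0.188, 0.336 and 0.577). The surrounding libraries of mice 1119, 1192 and 1199 held only 11, 0 and 3 counts of Ltbp2 and 19, 0 and 2 of Fbln5.

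Relatives of decorin, biglycan and lumican gave no calls. In other small leucine-rich proteoglycans 0 of 5 tested genes passed with edgeR, DESeq2 or limma-voom, 1 was lower at an unadjusted p under 0.05, and the median was -0.46. Prelp, whose protein anchors basement membranes to connective tissue, had 3.07 ± 0.98 CPM in surrounding tissue and 0.732 ± 0.354 in polyps (log2 fold change -2.11 ± 0.89, adjusted p = 0.321). Tsku, Optc and Aspn had -0.46 ± 0.26, -1.55 ± 1.19 and 1.41 ± 1.11. In other proteoglycans, 0 of 13 passed with any of the 3 tools, 3 were higher at an unadjusted p under 0.05, and the median was 0.32. Vcan, the versican gene of provisional matrix, was at 1.73 ± 0.45 (adjusted p = 0.0993). Sdc1, an epithelial syndecan, was at 0.58 ± 0.16, and Hspg2, the perlecan gene, at 0.95 ± 0.26, while Cd44, a hyaluronan receptor, was at 0.49 ± 0.22. Among genes for chondroitin and dermatan chain synthesis 0 of 14 passed with any of the 3 tools, 1 was higher at an unadjusted p under 0.05, and the median was -0.11. Its smallest p-values were those of Chst15 (0.90 ± 0.34), Ugdh (-0.31 ± 0.14), Xylt1 (-2.32 ± 1.10) and Fam20b (-0.24 ± 0.15).

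Of receptors of the 9 proteins 2 of 18 rose and 0 fell (median 0.50). At an unadjusted p under 0.05 (edgeR), 7 were higher and 1 lower. The lower one was Cd36, at -1.81 ± 0.53 (adjusted p = 0.134). Itgav, the integrin alpha V chain that binds fibronectin, tenascin C and periostin, had 288 ± 127 CPM around and 560 ± 71.9 CPM within polyps, a difference of 1.04 ± 0.18 (adjusted p = 0.0242). Itgb8, a partner chain of it that activates latent TGF-beta, went from 3.32 ± 1.83 to 12.7 ± 4.37 CPM (2.06 ± 0.43, adjusted p = 0.0419). The partner chains Itgb6 and Itgb1 were at 0.72 ± 0.16 and 0.70 ± 0.16 and missed the threshold (adjusted p = 0.052 and 0.0708). In matrix cleaving and assembly enzymes 2 of 11 rose, 0 fell, and all 11 estimates were above 0 (median 1.69). Here 7 were higher and 0 lower at an unadjusted p under 0.05 (edgeR). Loxl2, a lysyl oxidase that crosslinks collagen, went from 4.27 ± 2.31 to 15.8 ± 4.43 CPM (adjusted p = 0.0192). Tgm2, the transglutaminase that crosslinks fibronectin, went from 51.8 ± 34.8 to 140.6 ± 48.9 CPM (adjusted p = 0.0219). Lox, at 2.85 ± 0.69, and the convertase gene Furin, at 0.63 ± 0.16, did not pass. Without mouse 1119 or with the pairing ignored, 0 genes of these 3 lists with calls passed. Without mouse 1199, 1 receptor gene passed and 0 of the other two lists, and without mouse 1192 these were 1 matricellular, 1 receptor and 3 enzyme genes.

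**Figure D3:**
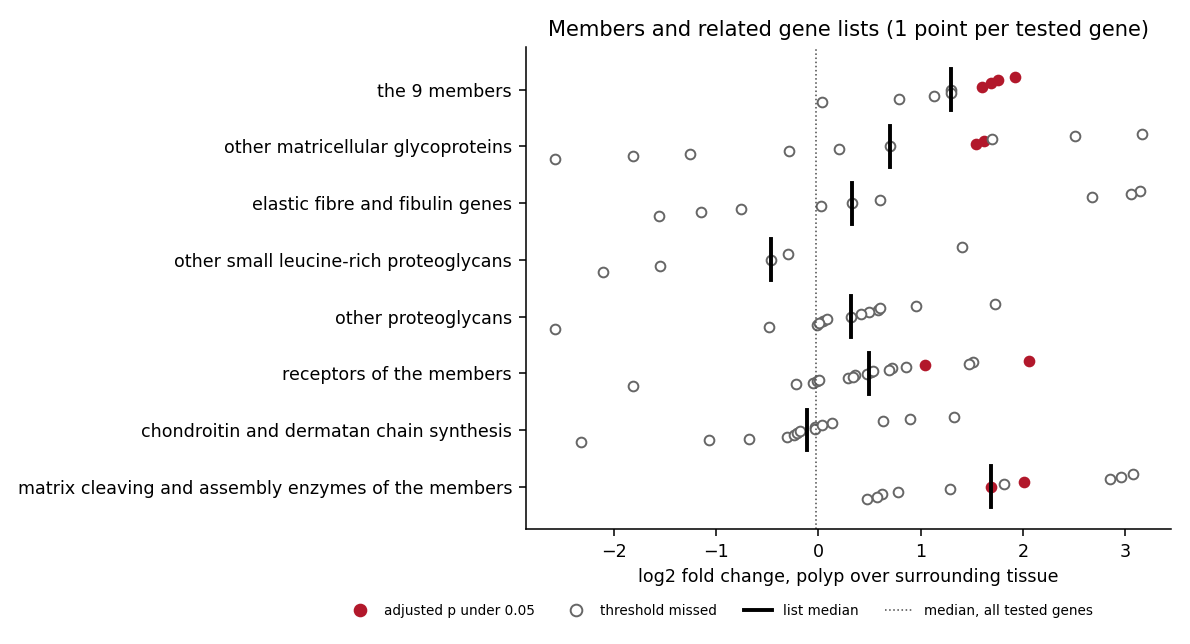
Log2 fold change (horizontal axis) of every tested gene in the 9-gene group and in 7 related lists, 1 point per gene, filled where the adjusted p is under 0.05, with a bar at each list's median. The median is 1.30 for the 9 genes, 1.69 for the enzymes and -0.46 for other small leucine-rich proteoglycans.

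Markers of several cell types differed between the tissues, and their part in the results above was not tested. The 10 fibroblast markers summed to 61.3 to 147 CPM in surrounding tissue and 203 to 523 CPM in polyps, and 4 of 8 tested rose (Pdgfra, Col1a1, Col1a2 and Col3a1). Without the 3 collagens, the other 7 summed to 16.7 to 32.9 and 42.6 to 61.9 CPM, with differences of 1.79, 1.02 and 0.91 on the log2 scale in mice 1119, 1192 and 1199. Of these 7, 5 were tested and 1 rose, Pdgfra, a growth factor receptor of fibroblasts, with 7.96 to 19.2 CPM in surrounding tissue and 31.1 to 37.8 CPM in polyps. The 6 markers left without it summed to 8.71 to 13.7 and 11.5 to 24.0 CPM, which overlapped. From surrounding tissue to polyp this sum went from 8.71 to 20.9 CPM in mouse 1119, 10.7 to 11.5 in 1192 and 13.7 to 24.0 in 1199. Among them Pdgfrb had a log2 fold change of 1.35 ± 0.33 (edgeR adjusted p = 0.0832) and Fap of 0.85 ± 0.90. Dpt was at -0.93 ± 0.91 and Thy1 at 0.02 ± 1.12. Twist2 was at 0 in every polyp and Pi16 in every surrounding sample. The 10 smooth muscle markers, led by Mylk and Myh11, summed to 269 to 287 CPM in surrounding tissue and 70.5 to 150 CPM in polyps, with 2 of 9 lower. The 10 epithelial markers, led by Krt8 and Krt19, were present in all samples at 4033 to 6865 and 6561 to 8547 CPM, with 3 of 10 higher. Endothelial markers (Vwf and Kdr the highest) summed to 9.26 to 17.9 and 16.6 to 47.8 CPM. Neutrophil markers (Ly6g and S100a9) summed to 1.07 to 18.0 and 17.3 to 52.1 CPM, and the ranges of both lists overlapped between tissues. Log2 differences in mice 1119, 1192 and 1199 were 1.27, 0.84 and 1.48 for endothelial and 2.50, 4.02 and 0.65 for neutrophil sums. Most of the neutrophil sum was Ly6g, which went from 7.48 to 34.3, 0.142 to 16.0 and 13.7 to 24.7 CPM in these mice. S100a9 went from 0.0947 to 6.89, 0.285 to 0 and 2.03 to 1.14 CPM. Pericyte (36.3 to 60.0 and 54.5 to 65.4 CPM) and macrophage and monocyte sums (18.9 to 39.0 and 33.1 to 44.8 CPM) overlapped too. Their log2 differences, with mice in the same order, were -0.14, 0.59 and 0.60 for pericytes and 1.11, 0.39 and 0.20 for macrophages and monocytes. Enteric glia and neuron markers summed to 4.56 to 7.21 and 17.9 to 21.5 CPM. Ret, the one of them that was tested, rose, with 1.35 to 5.41 CPM around and 17.4 to 21.3 CPM within polyps. The other 7 summed to 1.80 to 3.20 CPM in surrounding tissue and 0.247 to 1.56 CPM in polyps. Of these the neuronal Elavl4 was at 0 in every polyp, and Sox10 was at 0 in all 6 libraries. T cell markers summed to 2.56 to 9.69 CPM in surrounding tissue and 0.725 to 3.41 CPM in polyps, and B and plasma cell markers to 14.6 to 16.9 and 7.86 to 15.1 CPM. Both sums were lower in the polyp in all 3 mice, although the ranges of both overlapped between tissues. Mesothelial (2.70 to 6.40 CPM over all samples), adipocyte (6.77 to 17.4) and platelet (0.121 to 1.89) markers were low. In endothelial, pericyte, macrophage, neutrophil, T cell, B and plasma cell, mesothelial and adipocyte lists 0 markers were called by edgeR, and at an unadjusted p under 0.05 the first 3 of these had 3, 1 and 1 higher.

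The genes whose profile over the 6 libraries was most like the mean standardized profile of the 9 were Pdlim5 (Pearson r = 0.993), Fsd1l (0.993), Sat1 (0.987), Pklr (0.982) and Tnfrsf12a (0.981), out of 5745 genes of at least moderate abundance. These 6 points share the mice and the scaling, so the values are a description. Of the 9 genes themselves Tnc (0.98) and Fbn1 (0.977) were nearest to their common profile, and Lum (0.475) was farthest. Each of the 9 is part of that mean profile, which raises its correlation, so these values cannot be compared with those of the other genes.

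**Figure D4:**
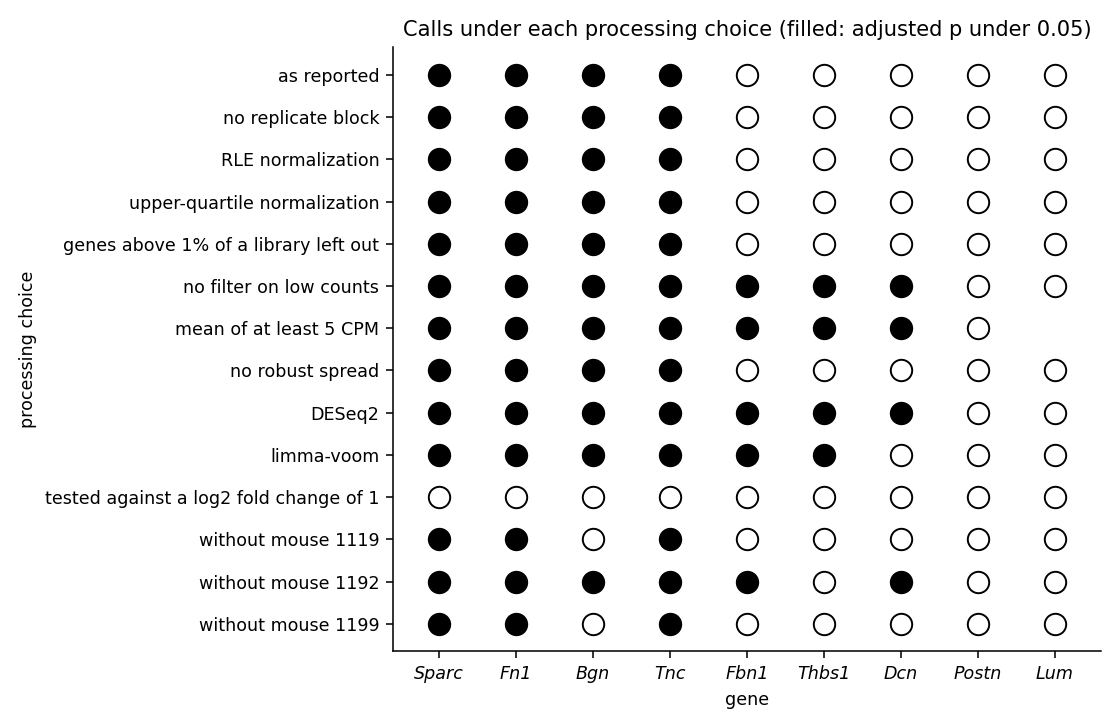
Calls for each gene (horizontal axis) under the reported fit and 13 other processing choices (vertical axis), filled where the adjusted p is under 0.05 and with no circle where the gene was not tested. Fn1, Sparc and Tnc are filled under 12 of the 13 other choices, all except the test against a log2 fold change of 1.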

How the data were processed

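The authors deposited raw counts per Ensembl gene for polyp and surrounding cecum of 3 mice, 1 table per library, without normalization per the file headers. Per the submitters' processing notes the tools were HTSeq 0.5.3p9, TopHat2 2.0.7 and Bowtie 0.12.9. Each of settings, genome build, annotation and strand handling was not given in the sources used here, so coordinates are printed for RefSeq promoter windows only. GENCODE M21 named 32919 of 37991 identifiers and gave exon lengths (all isoforms joined). By it Fn1, Fbn1, Thbs1 and Tnc share exon bases with a gene on the opposite strand, and the 3 such partners in the count tables had at most 8 counts in a library.

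The two-sided quasi-likelihood test of edgeR 4.0.16 was run on the counts in R 4.3.3 with robust spread, TMM factors (0.593 to 1.43) and filterByExpr (minimum count 10), which kept 10960 genes. The animal entered the model as a block, since the design is described as paired and titles give its number. Deviations from tissue means correlated at 0.0719, 0.127 and 0.159 within mice. No library was a copy of another library of the same tissue (chi-square over its degrees of freedom 21.6 to 77.9 between mice of a tissue). Standard errors came from the test statistic, with 2 residual degrees of freedom per gene and a median of 6.63 prior ones. The procedure was also run on simulated counts drawn without differences between mice, and the outcome of that run is not given here. Named were all 9 members, the 4 smallest p-values in each of 7 matrix lists, the 2 most abundant markers and those at 0 in 13 cell type lists, the 5 genes nearest to the members' mean profile (mean log2 CPM of at least 3, 0.5 CPM added before the log), and 2 collagens. Members and lists were chosen with earlier results of these data known. Count ratios, promoter motifs and the fibroblast subset were added after values were seen, as were the names of tested fibroblast markers, of Ret and of Cd36. Alternatives included DESeq2 1.42.0 and voom of limma 3.58.1. Figures were drawn with matplotlib 3.10.9.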

Additional observations from a re-analysis of the deposited data

How the results depend on the processing

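Fn1, Sparc and Tnc passed under 12 of 13 alternatives. With a change of 1 on the log2 scale as the null they did not (adjusted p = 0.13, 0.13 and 0.246), nor did Bgn (0.348), and 0 of the 9 genes and 3 of all genes passed. Fbn1, Thbs1 and Dcn all passed without a filter on low counts, with a mean of at least 5 CPM and with DESeq2 (7 of the 9 genes called in each). In the same order, 442 of 21370, 267 of 7339 and 326 of 10960 tested genes were called higher. Fbn1 and Thbs1 also passed with limma-voom, where 252 of 10960 tested genes were called higher. Lum reversed to -0.00196 with upper-quartile normalization, -0.0524 with limma-voom, -0.09 without mouse 1119 and -0.19 without mouse 1199 (0.32 without mouse 1192), and it was not tested at a mean of 5 CPM. Leaving out 1 mouse gave 3 to 6 of the 9 genes and 83 to 281 genes in all, beside 303.

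Without the replicate block, 87 genes in all were called and the same 4 of the 9. Calls in other matricellular glycoproteins, receptors and enzymes, 2 each with the block, then numbered 0, 0 and 0. The test against a log2 fold change of 1 also gave 0 in each. Without a filter on low counts 753 genes were called, 4 matricellular, 1 elastic fibre, 4 proteoglycan, 6 receptor and 5 enzyme genes among them. DESeq2 called 536 genes, with 4 matricellular, 2 elastic fibre, 4 receptor and 5 enzyme genes. At a mean of 5 CPM 1 proteoglycan and 5 receptor genes passed, with limma-voom 4 receptor genes, without robust spread 1 matricellular and 1 receptor gene, and with upper-quartile factors 1 matricellular gene. Leaving out a mouse gave 0 to 1 matricellular, elastic fibre and receptor genes, 0 to 2 proteoglycan and 0 to 3 enzyme genes. Other small leucine-rich proteoglycans and chain synthesis genes had 0 calls under each of the 13 alternatives. Causes were not tested. With 3 mice and at most 209 counts per member in surrounding libraries, depth and number of pairs limit the precision.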
